A study of Mus musculus with 6 samples.

Results

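The 34 genes described here carry glucose into the cell, break it down to pyruvate and lactate, or store it as glycogen, and accessibility was followed at every ATACseq peak that lay in one of them or within 10 kb of it. They were chosen by name from the 55450 genes of GENCODE M21, with start sites from its basic set, and 109 of the 41308 consensus peaks of the series lay in their windows. A peak within 2000 bp of a start site of the gene itself was its promoter peak (43 peaks), one that lay instead within 2000 bp of a neighbour's start site was a neighbour's promoter peak (15), and the other 51 were distal. Of the 109, 76 were present in all 6 libraries and could be compared by height, 40 at the genes' own promoters, 12 at neighbours' promoters and 24 distal. Peaks are named by the distance of their summit from the nearest start site of the gene, in kb, with minus for upstream.

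GL261, a mouse glioma line that here stably expressed the plasmid pEGFP-N1, was kept for 16 h in DMEM with 10% serum at 21% O2 (normoxia), 1% O2 (mild hypoxia) or <0.1% O2 (severe hypoxia). The cells were fixed with formaldehyde before lysis, and 2 libraries were made for each condition. Nothing states that the replicates came from separate cultures, so the p-values measure only the spread between these libraries, which may be technical. In ATACseq a transposase inserts into open DNA, and the fragment pileup at a peak's summit counts the fragments that cover it.

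Glycolysis turns glucose into pyruvate with a small yield of ATP that needs no oxygen, and lactate dehydrogenase regenerates the NAD+ it consumes. When oxygen falls, the transcription factor HIF-1 is stabilised, binds DNA at a short core element, and is known to raise transcription of glucose transporters, most glycolytic enzymes and pyruvate dehydrogenase kinases, so these genes are textbook hypoxia targets. Accessibility is not transcription, and no RNA was analysed here.

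Some of the peaks that changed most are shown as DNA first. Each stretch is the 200 bases centred on the summit, on the plus strand of mm10 (GRCm38.p6), in lower case, with capitals for ACGTG or GCGTG, the core of the hypoxia response element, on either strand (CACGT or CACGC on the strand printed) and for TGANTCA, the AP-1 element. The first 5 are the peaks that were listed in all 4 hypoxic libraries and in neither normoxic one, the next 3 are peaks whose pileup rose, and the last is the promoter of *Ldha*, whose pileup fell at <0.1% O2.
*Slc2a1* -6.3 kb, chr4:119102278-119102477: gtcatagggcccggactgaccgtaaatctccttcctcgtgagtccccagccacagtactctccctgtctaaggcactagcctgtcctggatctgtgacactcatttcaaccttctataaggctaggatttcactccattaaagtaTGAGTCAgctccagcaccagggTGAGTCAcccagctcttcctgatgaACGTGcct
*Slc2a1* -2.8 kb, chr4:119105813-119106012: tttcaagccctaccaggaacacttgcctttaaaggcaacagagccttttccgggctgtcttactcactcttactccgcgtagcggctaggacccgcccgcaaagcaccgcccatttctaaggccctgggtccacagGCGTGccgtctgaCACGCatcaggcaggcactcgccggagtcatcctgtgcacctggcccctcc
*Slc2a3* -23.7 kb, chr6:122766342-122766541: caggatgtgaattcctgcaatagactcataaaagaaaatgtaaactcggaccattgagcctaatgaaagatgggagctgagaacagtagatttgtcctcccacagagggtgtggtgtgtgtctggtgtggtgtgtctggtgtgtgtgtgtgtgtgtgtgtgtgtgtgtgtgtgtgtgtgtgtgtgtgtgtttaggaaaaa
*Pkm* -2.8 kb, chr9:59653470-59653669: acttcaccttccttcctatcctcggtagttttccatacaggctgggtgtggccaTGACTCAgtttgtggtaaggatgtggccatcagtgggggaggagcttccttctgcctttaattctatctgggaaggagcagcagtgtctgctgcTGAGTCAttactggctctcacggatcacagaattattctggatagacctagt
*Ldha* +8.2 kb, chr7:46855739-46855938: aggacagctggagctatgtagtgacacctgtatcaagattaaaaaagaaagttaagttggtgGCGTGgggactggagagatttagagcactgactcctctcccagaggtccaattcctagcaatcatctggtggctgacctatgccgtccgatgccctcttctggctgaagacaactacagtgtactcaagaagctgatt
*Slc2a1* +12.7 kb, chr4:119121300-119121499: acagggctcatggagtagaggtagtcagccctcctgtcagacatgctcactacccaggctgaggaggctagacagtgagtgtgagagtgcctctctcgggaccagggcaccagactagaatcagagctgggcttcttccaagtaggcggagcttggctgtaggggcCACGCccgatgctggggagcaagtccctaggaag
*Hk2* +12.3 kb, chr6:82761003-82761202: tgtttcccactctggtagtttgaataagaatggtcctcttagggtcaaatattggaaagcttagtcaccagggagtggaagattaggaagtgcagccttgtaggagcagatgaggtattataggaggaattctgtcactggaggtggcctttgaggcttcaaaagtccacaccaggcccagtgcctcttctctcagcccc
*Pdk1* -0.1 kb, chr2:71872998-71873197: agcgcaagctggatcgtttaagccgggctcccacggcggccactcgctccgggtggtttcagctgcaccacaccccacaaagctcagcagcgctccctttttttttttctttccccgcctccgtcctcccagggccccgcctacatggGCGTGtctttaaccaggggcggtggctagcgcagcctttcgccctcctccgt
*Ldha* -0.1 kb, chr7:46845644-46845843: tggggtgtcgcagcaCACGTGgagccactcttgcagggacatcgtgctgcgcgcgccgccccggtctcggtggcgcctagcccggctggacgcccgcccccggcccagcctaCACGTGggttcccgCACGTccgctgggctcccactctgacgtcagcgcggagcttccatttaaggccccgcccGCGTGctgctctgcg
The core element was present in 6 of these 9 stretches and absent from those at *Slc2a3* -23.7 kb, *Pkm* -2.8 kb and *Hk2* +12.3 kb. The *Ldha* promoter held 6 matches, some of them the same letters read on both strands of CACGTG. Repeat sequence covered 66.5% of the stretch at *Ldha* +8.2 kb, 60% at *Slc2a3* -23.7 kb, 40% at *Hk2* +12.3 kb and 14% at *Pdk1*, and none of the other 5.

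Pileups were recovered as whole numbers from the fold and p-value of each deposited peak and divided by the median of the ranked peaks in the same library, so a relative pileup of 1 is the height of the median peak. The libraries held 33006 to 43554 peaks at a mean fragment coverage of 2.16 to 3.35, both normoxic libraries being the shallowest. Between 86 and 111 listed peaks lay in the windows of the glucose genes. A promoter peak was present in all 6 libraries for 7 of 8 glioma and neural progenitor markers (*Egfr* had none), and in no library for 5 of 6 markers of other cell types (*Pecam1* had one in 5 of 6). All log2 changes below come from 1 limma fit over the 28432 peaks present in every library, with Benjamini-Hochberg adjusted p-values over all of them and 0.05 as the threshold. The fit had 3 residual degrees of freedom per peak and 34.7 from the prior shared over all peaks. Each SE and p-value thus rests mostly on the spread of peaks of similar height, and little on that peak's own replicates. An exact permutation test of 2 libraries against 2 cannot go below 0.33. Both hypoxia comparisons use the same 2 normoxic libraries.

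Pileup rose at some elements of these genes and fell at others, and their promoters did so in shares near those of all promoters. The median change of their promoters was near that of all promoters at 1% O2. Some of the distal peaks that rose, at *Hk1* +19.8 kb, *Ldha* -6.8 kb and *Pgm2* +19.6 kb, lie at start sites that only the full annotation holds. At 1% O2, 5 of the 40 ranked promoter peaks were higher in pileup, against 12.9% of all 12959 ranked promoter peaks, and 8 were lower, against 22%. Among the 24 distal peaks 6 were higher, against 19.2% of all 15473, and 4 lower, against 18.8%. The median log2 change was -0.09 for the member promoters and -0.07 for all promoters, and 0.20 for the member distal peaks and 0.00 for all distal peaks.

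At <0.1% O2, 5 promoter peaks were higher, with 13.8% over all promoters, and 14 were lower, with 38.5%. The higher ones include *Pfkp* +1.4 kb, whose value in replicate 1 of that condition is that of a neighbouring summit. Of the distal peaks 11 were higher, with 31.9% over all distal peaks, and 2 were lower, with 11.8%. Medians were -0.04 for the member promoters beside -0.19 for all promoters, and 0.36 for the member distal peaks beside 0.17 for all. The promoter shares were thus near those of the genome, and the share of distal peaks that were higher at <0.1% O2 was 45.8%.

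These counts depend on the scale. Scaling by genome coverage in place of the median peak shifts the median of all peaks by 0.17 at 1% O2 and by -0.17 at <0.1% O2 on the log2 scale. On that scale promoters gave 2 higher and 2 lower at 1% O2 (9.03% and 3.18% over all promoters) and 2 higher and 14 lower at <0.1% O2 (2.89% and 34.6%). Distal peaks were then 4 higher and 0 lower at 1% O2 (18.1% and 4.97% over all distal peaks) and 6 higher and 2 lower at <0.1% O2 (13.7% and 11.5%). Among the calls described next, those of *Slc2a3* -58.8 kb and -22.1 kb, *Hk1* +79.2 kb and the promoters of *Hk1*, *Pfkp*, *Pfkfb3*, *Gapdh*, *Ldhb*, *Pdk2*, *Ugp2* and *Gbe1*, with *Eno1* +7.9 kb, *Tpi1* +7.3 kb and *Gapdh* +4.3 kb, at 1% O2 did not pass when scaled by coverage. The rises among them were larger on that scale, at 0.56 for *Slc2a3* -22.1 kb, 0.51 for *Hk1* +79.2 kb, 0.49 for *Hk1*, 0.56 for *Pfkp* and 0.43 for *Pdk2*, and missed the threshold (adjusted p from 0.0627 to 0.157), while the falls were smaller. At <0.1% O2 the calls that did not pass by coverage were all rises, and they were smaller on that scale, being those of *Hk1* +40.0 kb and +79.2 kb, *Pgm1* +17.3 kb, *Gapdh* +8.4 kb, *Mxi1* +30.4 kb, *Pfkp* +1.4 kb, *Aldoc* and *Gys1*. Quantile normalization gave 9 promoters higher and 8 lower at 1% O2 (17.1% and 17.9% over all promoters), with 6 distal peaks higher and 3 lower (19.6% and 17.5%). At <0.1% O2 it gave 5 promoters higher and 13 lower (15% and 37.8%). With the trend of change with GC content removed, 13 promoters were higher and 10 lower at <0.1% O2 (20.5% and 26.8%). The median GC content was 60.1% in the member promoter peaks and 59.5% in all ranked promoter peaks, and 51.7% in the member distal peaks and 48.7% in all ranked distal peaks.

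**Figure D1:**
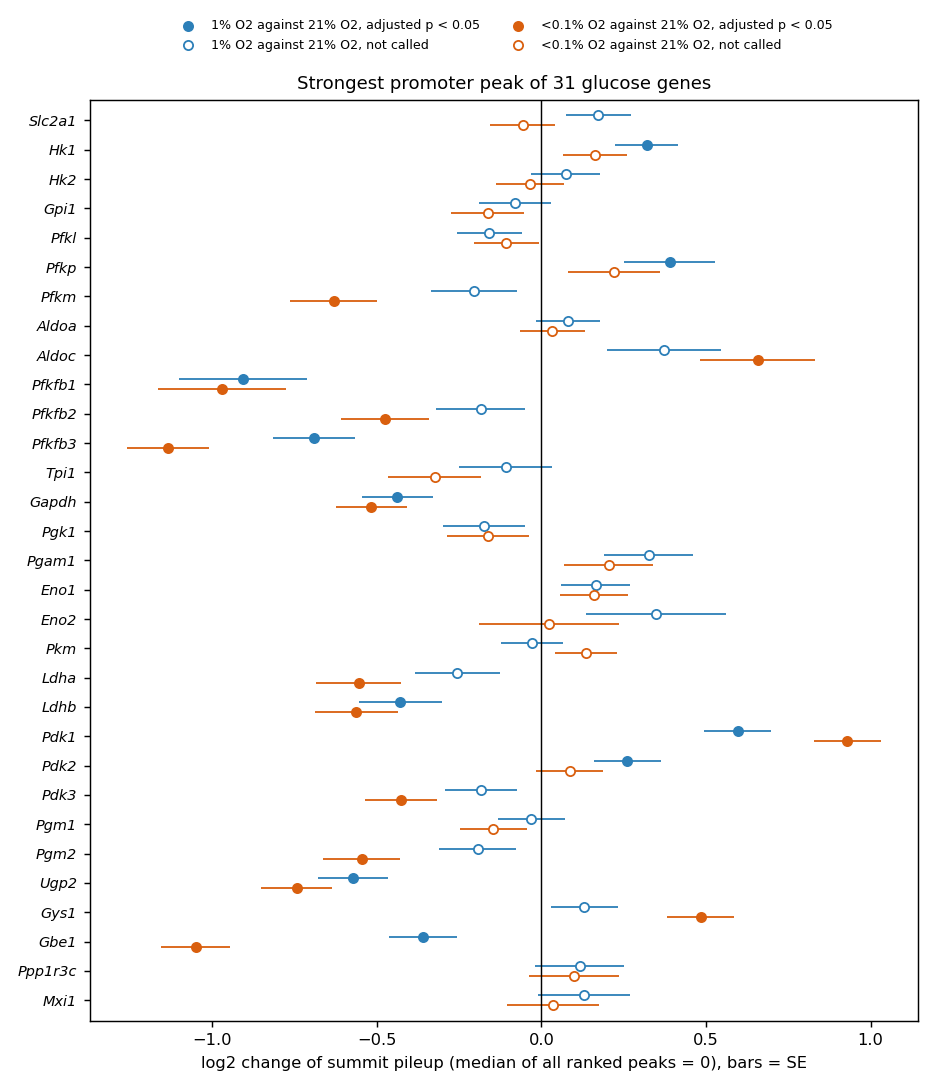
The log2 change of summit pileup at the strongest promoter peak of 31 genes (horizontal axis, with the median of all ranked peaks at 0) for 1% O2 (blue) and <0.1% O2 (orange) against 21% O2, bars giving the SE and filled circles an adjusted p under 0.05 in limma. *Pdk1* stands farthest right at 0.60 and 0.93, and *Pfkfb1*, *Pfkfb3* and *Gbe1* farthest left.

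The strongest promoter peak of a gene differed widely in height between genes, from a mean relative pileup over the 6 libraries of 4.55 at *Pkm* and 4.48 at *Hk1* down to 0.55 at *Eno2*. There were 3 genes with no promoter peak of their own. *Pdk4*, a kinase that switches off pyruvate dehydrogenase, had no peak at all in its window in any library. *Slc2a3* and *Pfkfb4* had none by the basic set of start sites, but peaks at *Slc2a3* +2.6 kb and -58.8 kb and at *Pfkfb4* +7.4 kb and +17.2 kb lay within 2000 bp of a start site in the full annotation.

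*Slc2a1* encodes GLUT1, the main glucose transporter of most growing cells, and 3 elements outside its promoter were higher, or listed anew, in hypoxia. The promoter itself had relative pileups of 3.31 and 3.11 at 21% O2, 3.81 and 3.44 at 1% O2, with 3.02 and 3.16 at <0.1% O2. It was highest at 1% O2 and the <0.1% O2 libraries overlapped normoxia. Its log2 change was 0.17 ± 0.10 (SE, adjusted p = 0.173) at 1% O2 and -0.06 ± 0.10 (adjusted p = 0.668) at <0.1% O2, neither past the threshold. With quantile normalization the change at 1% O2 passed (0.28, adjusted p = 0.0163), and with the GC trend removed that at <0.1% O2 did so in the other direction (0.26, adjusted p = 0.0219).

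The peak in the body of *Slc2a1* at +12.7 kb read 1.25 and 1.19 at 21% O2, 2.12 and 2.26 at 1% O2, with 2.25 and 2.29 at <0.1% O2. All 4 hypoxic libraries lay well above both normoxic ones and close to each other. The log2 change was 0.85 ± 0.11 (adjusted p = 3.31e-07), 1.80-fold, at 1% O2 and 0.90 ± 0.11 (adjusted p = 5.27e-08), 1.87-fold, at <0.1% O2. The local background that the peak caller set around this peak rose as well, from 2.78 and 3.16 times the genome coverage in normoxia to 5.72 and 5.22 at 1% O2, with 5.01 and 4.49 at <0.1% O2. The fold over that background, the measure in the deposited lists, did not pass at either level (log2 0.01 and 0.09, adjusted p = 0.973 and 0.58 in limma).

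Upstream of *Slc2a1*, the peaks at -6.3 kb and -2.8 kb, whose sequences are printed above, were listed in hypoxia alone. That at -2.8 kb had relative pileups of 1.39 and 1.23 at 1% O2, with 1.18 and 1.34 at <0.1% O2, and no peak was listed in normoxia, where, given the background of the nearest listed peak, a relative pileup of about 0.557 and 0.5 would have been enough to be listed. At -6.3 kb the values were 0.75 and 0.816 at 1% O2, with 0.788 and 0.793 at <0.1% O2. A distal peak past the gene, at +33.7 kb, stayed between 0.439 and 0.55 in all libraries and did not pass in either comparison.

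*Slc2a3* encodes GLUT3, a transporter with high affinity for glucose, and its peaks moved in opposite directions. At -58.8 kb, at the upstream end of the gene record, the relative pileup was 1.72 and 2.01 at 21% O2, 1.28 and 1.13 at 1% O2, with 1.03 and 1 at <0.1% O2. Normoxia was highest with no overlap, and the log2 change was -0.63 ± 0.13 (adjusted p = 0.000292) at 1% O2 and -0.87 ± 0.13 (adjusted p = 1.51e-06) at <0.1% O2. The peak at -23.7 kb was listed only in hypoxia, at 0.519 and 0.592 for 1% O2 and 0.747 and 0.659 for <0.1% O2. At -22.1 kb the values were 0.869 and 0.812 in normoxia, 1.11 and 1.1 at 1% O2, with 1.04 and 1.07 at <0.1% O2, and the log2 change at 1% O2 was 0.40 ± 0.15 (adjusted p = 0.0318). This call was lost in 4 of the 6 fits that left out a library (0.36 without replicate 2 and 0.43 without replicate 1 at 21% O2, 0.41 without replicate 1 and 0.42 without replicate 2 at 1% O2).

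Hexokinases trap glucose in the cell as glucose 6-phosphate. The gene body of *Hk1* held one of the largest rises of the whole list, at +19.8 kb, where relative pileup was 2.02 and 2.41 at 21% O2, 4.6 and 4.21 at 1% O2, with 4 and 4.62 at <0.1% O2. The hypoxic libraries of both levels overlapped each other and lay far above normoxia. The log2 change was 1.00 ± 0.10 (adjusted p = 2.03e-09) at 1% O2 and 0.96 ± 0.10 (adjusted p = 2.25e-09) at <0.1% O2, and by the full annotation this peak lies at a start site of *Hk1*. Its local background rose from 3.74 and 4.99 times coverage to 10.2 and 8.4 at 1% O2, with 7.72 and 7.45 at <0.1% O2, and the change of the fold turned to -0.08 and -0.01.

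The *Hk1* promoter, which it shares with the antisense gene *Hk1os*, read 4.31 and 3.69 in normoxia, 5.23 and 4.73 at 1% O2, with 4.52 and 4.41 at <0.1% O2. It was higher at 1% O2 by 0.32 ± 0.10 (log2, adjusted p = 0.0087), a call that was lost without normoxic replicate 2 (0.22) or without replicate 1 of 1% O2 (0.26), and changed by 0.16 (adjusted p = 0.165) at <0.1% O2. Downstream, the peak at +79.2 kb had 2.51 and 2.39 in normoxia, 3.03 and 3.16 at 1% O2, with 3.37 and 3.09 at <0.1% O2, rising by 0.34 ± 0.10 (adjusted p = 0.00769) and 0.40 ± 0.10 (adjusted p = 0.00131). The rise at 1% O2 did not pass without replicate 2 of that condition (0.32). The intronic peak at +40.0 kb passed at <0.1% O2 (0.43, adjusted p = 0.0165), though not without normoxic replicate 1 (0.34) or <0.1% O2 replicate 1 (0.36). A peak at +78.0 kb was listed in both 1% O2 libraries (1.02 and 1.1), in neither normoxic one and in 1 at <0.1% O2 (0.634).

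*Hk2*, the inducible hexokinase of tumours, had a higher peak inside the gene at severe hypoxia while its promoter did not pass at either level. At +12.3 kb the relative pileup was 0.295 and 0.25 at 21% O2, 0.315 and 0.429 at 1% O2, with 0.677 and 0.573 at <0.1% O2. These are low counts, of 18 and 20 fragments at 21% O2, 34 and 42 at 1% O2, with 67 and 47 at <0.1% O2. Both <0.1% O2 libraries exceeded the rest, and the log2 change was 0.44 ± 0.23 (adjusted p = 0.139) at 1% O2 and 1.2 ± 0.23 (adjusted p = 5.62e-05), 2.29-fold, at <0.1% O2. The promoter read 2.51 and 2.79, 2.76 and 2.81, and 2.7 and 2.48 in the same order, overlapping throughout, with changes of 0.07 ± 0.10 (adjusted p = 0.613) and -0.03 ± 0.10 (adjusted p = 0.814). A weak peak at +33.0 kb was listed in both 1% O2 libraries (0.213 and 0.316), in 1 at <0.1% O2 (0.343) and in no normoxic library.

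**Figure D2:**
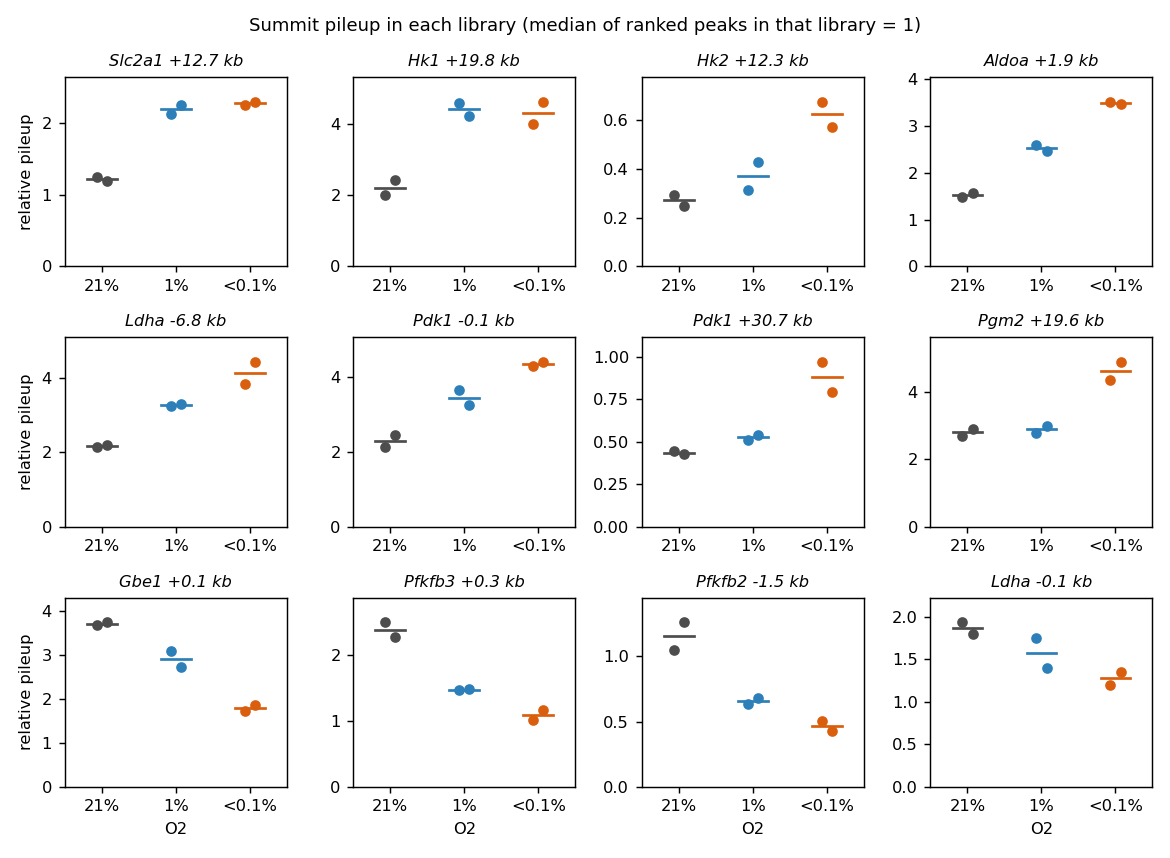
Relative summit pileup (vertical axis, 1 = median ranked peak of the library, each panel from 0) for 12 peaks in each library at 21%, 1% and <0.1% O2 (horizontal axis), circles being libraries and lines the mean of both. The *Slc2a1* +12.7 kb and *Hk1* +19.8 kb peaks rise to one level in both hypoxic conditions, *Hk2* +12.3 kb, *Pdk1* +30.7 kb and *Pgm2* +19.6 kb rise mainly at <0.1% O2, and the *Gbe1*, *Pfkfb3*, *Pfkfb2* -1.5 kb and *Ldha* promoter peaks are lowest at <0.1% O2.

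Upper glycolysis was represented by glucose 6-phosphate isomerase (*Gpi1*), the 3 phosphofructokinase genes and 2 aldolase genes, with 10 ranked promoter peaks. At 1% O2, 2 of them were higher (12.9% over all promoters), and at <0.1% O2, 3 were higher (13.8%) and 1 lower (38.5%). One of those higher at <0.1% O2 is *Pfkp* +1.4 kb, which rests on 1 library, as given with that gene. The clearest rise was at *Aldoa*, the aldolase of most tissues, at a second promoter peak at +1.9 kb that is also a promoter peak of the neighbour *Gm44856*. Its relative pileups were 1.48 and 1.57 at 21% O2, 2.58 and 2.47 at 1% O2, with 3.52 and 3.46 at <0.1% O2. The 3 conditions did not overlap and rose stepwise as oxygen fell. The log2 change was 0.73 ± 0.11 (adjusted p = 1.1e-06) at 1% O2 and 1.19 ± 0.11 (adjusted p = 3.23e-11), 2.29-fold, at <0.1% O2, and the rank of the fold rose by 25.7 and 37.9 percentile points. The main *Aldoa* promoter peak, shared with *Fam57b*, ranged only from 3.07 to 3.43.

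*Aldoc*, the brain aldolase, had a promoter peak of 0.705 and 0.525 in normoxia, 0.759 and 0.816 at 1% O2, with 0.98 and 0.939 at <0.1% O2. The conditions did not overlap, but only the change at <0.1% O2 passed, at 0.66 ± 0.17 (log2, adjusted p = 0.00202), and it missed the threshold without normoxic replicate 2 (0.44). At *Pfkm*, the muscle phosphofructokinase, the promoter peak shared with *Senp1* fell from 1.82 and 1.5 in normoxia to 1.06 and 1.07 at <0.1% O2 (-0.63 ± 0.13, adjusted p = 0.000155), with 1.38 and 1.49 at 1% O2 (-0.20, adjusted p = 0.229). The peak at the other *Pfkm* start site did not pass (0.20 and 0.17).

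*Pfkp*, the platelet phosphofructokinase, had a promoter peak at its start site of 0.934 and 1.11 in normoxia, 1.32 and 1.35 at 1% O2, with 1.24 and 1.13 at <0.1% O2. It was higher at 1% O2 by 0.39 ± 0.14 (log2, adjusted p = 0.0264), but in 3 fits with a library left out it was not (0.25 without normoxic replicate 1, 0.42 without replicate 1 and 0.39 without replicate 2 of 1% O2). A second promoter peak at +1.4 kb was counted as higher at <0.1% O2 (0.67 ± 0.23, adjusted p = 0.0159), yet in replicate 1 of that condition a single listed peak spans both, so its value there (1.24) is that of the neighbouring summit. Replicate 2 read 0.573 against 0.492 and 0.575 in normoxia, and without replicate 1 the change was 0.11 (adjusted p = 0.771). *Pfkp* also had a peak at +72.5 kb that was listed in both normoxic libraries (0.328 and 0.35), in neither at 1% O2 and in 1 at <0.1% O2 (0.253). Its peak at +34.4 kb read 0.574 and 0.675 in normoxia, 0.472 and 0.408 at 1% O2, with 0.485 and 0.402 at <0.1% O2. The change at 1% O2 did not pass (-0.50, adjusted p = 0.0547), and the fall at <0.1% O2 (-0.49 ± 0.21, adjusted p = 0.0481) passed in 1 of 6 fits with a library left out, with values from -0.65 to -0.36. The promoters of *Gpi1* and *Pfkl* did not pass in either comparison.

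The 4 *Pfkfb* genes encode the enzymes that make and break fructose 2,6-bisphosphate, the strongest activator of phosphofructokinase, and *Pfkfb3* and *Pfkfb4* are known hypoxia-induced genes. All 5 ranked promoter peaks of this family were lower in pileup at <0.1% O2, where 38.5% of all promoters were, and 4 of the 5 at 1% O2, where 22% were. Of these calls, 2 at <0.1% O2 (*Pfkfb2* -0.2 kb and *Pfkfb3* +0.2 kb) did not pass with the GC trend removed. When the fold was tested, *Pfkfb2* -0.2 kb turned upward. *Pfkfb2* -1.5 kb and both *Pfkfb3* peaks then did not pass at 1% O2, nor did *Pfkfb3* +0.2 kb at <0.1% O2. Both calls of *Pfkfb3* at 1% O2 also did not pass when scaled by coverage. At *Pfkfb3* the main promoter peak read 2.49 and 2.26 at 21% O2, 1.46 and 1.48 at 1% O2, with 1.01 and 1.16 at <0.1% O2. The fall was stepwise and without overlap, with log2 changes of -0.69 ± 0.12 (adjusted p = 3.24e-05) and -1.13 ± 0.12 (adjusted p = 2.6e-09). The peak at +0.2 kb from a second start site, inside the gene, went from 1.79 and 2 to 1.31 in both 1% O2 libraries and to 1.36 and 1.4 at <0.1% O2 (-0.53 and -0.45).

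*Pfkfb2* had a pair of promoter peaks, both also within 2000 bp of start sites of *Yod1*. That at -1.5 kb fell from 1.05 and 1.26 in normoxia to 0.639 and 0.684 at 1% O2, with 0.505 and 0.427 at <0.1% O2, by -0.80 ± 0.18 (adjusted p = 0.000527) and -1.31 ± 0.18 (adjusted p = 2.1e-07), the largest fall among the ranked member peaks. The taller one at -0.2 kb read 1.54 and 1.61, 1.24 and 1.55, and 1.21 and 1.06, with changes of -0.18 (adjusted p = 0.295) and -0.48 ± 0.13 (adjusted p = 0.00377), the latter not called without replicate 2 of <0.1% O2 (-0.38). *Pfkfb1*, whose promoter peak lies beside *Apex2*, fell from 0.803 and 0.988 to 0.481 and 0.469 at 1% O2 (-0.91 ± 0.19, adjusted p = 0.000338) and 0.485 and 0.427 at <0.1% O2 (-0.97 ± 0.19, adjusted p = 9.1e-05). At *Pfkfb4* the intronic peak at +17.2 kb was above normoxia in every hypoxic library (0.508 and 0.45 against 0.61 to 0.657), but its changes of 0.39 and 0.40 did not pass (adjusted p = 0.108 and 0.0799).

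The 7 genes of lower glycolysis, from triose phosphate isomerase to pyruvate kinase, each had 1 ranked promoter peak, and only that of *Gapdh* passed in either comparison. That makes 0 higher and 1 lower at both levels, where 12.9% and 22% of all promoters were at 1% O2, and 13.8% and 38.5% at <0.1% O2. The *Gapdh* promoter read 3.08 and 3.51 at 21% O2, 2.24 and 2.63 at 1% O2, with 2.21 and 2.39 at <0.1% O2. Hypoxia was lower without overlap, by -0.44 ± 0.11 (adjusted p = 0.00149) and -0.52 ± 0.11 (adjusted p = 0.000156), the former not passing without replicate 1 of 1% O2 (-0.31). The promoter of *Pgk1*, phosphoglycerate kinase and a classical HIF target, read 1.56 and 1.96 in normoxia and 1.5 to 1.6 in the 4 hypoxic libraries, with changes of -0.17 ± 0.12 (adjusted p = 0.288) and -0.16 ± 0.12 (adjusted p = 0.293). The value rests on the normoxic libraries, since without replicate 1, the lower of the 2, both changes passed (-0.36 and -0.37), and without replicate 2 they were 0.0047 and 0.0042. The promoters of *Tpi1*, *Pgam1*, *Eno1*, *Eno2* and *Pkm* did not pass, with changes between -0.32 and 0.35.

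Of the 4 ranked distal peaks of lower glycolysis, 3 were lower at 1% O2 (18.8% over all distal peaks) and 1 was higher at <0.1% O2 (31.9%), and none of these calls passed when scaled by coverage. At *Eno1*, the main enolase, the peak past the gene at +7.9 kb read 1.02 and 1.27 in normoxia, 0.611 and 0.847 at 1% O2, with 1.27 and 1.2 at <0.1% O2. It was lower at 1% O2 only (-0.66 ± 0.16, adjusted p = 0.00129, and -0.41, not called, without replicate 1 of 1% O2), with 0.12 (adjusted p = 0.58) at <0.1% O2. *Gapdh* +8.4 kb had 1.1 and 1.07, 1.27 and 1.1, and 1.68 and 1.4 in the same order, and was higher at <0.1% O2 (0.50 ± 0.14, adjusted p = 0.00297), though not without replicate 1 (0.37). At 1% O2 *Gapdh* +4.3 kb (-0.31, adjusted p = 0.0148) and *Tpi1* +7.3 kb (-0.26, adjusted p = 0.0429) were lower, the former at a start site of the full annotation, and these calls were lost in 3 and 5 of the 6 fits that left out a library (ranges -0.38 to -0.25 and -0.30 to -0.22).

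*Pkm*, which encodes pyruvate kinase, gained a tall peak upstream. At -2.8 kb the relative pileup was 1.63 and 1.61 at 1% O2, with 2.01 and 1.83 at <0.1% O2, and no peak was listed in normoxia, where about 0.836 and 0.812 would have been listed. Its summit sequence held 2 AP-1 elements and no hypoxia core. A peak inside the gene at +3.3 kb, at a start site of the full annotation, was listed in normoxia (1.05 and 1.09) and at <0.1% O2 (1.38 and 1.5) but in neither library at 1% O2. The *Pkm* promoter stayed between 4.11 and 4.9.

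**Figure D3:**
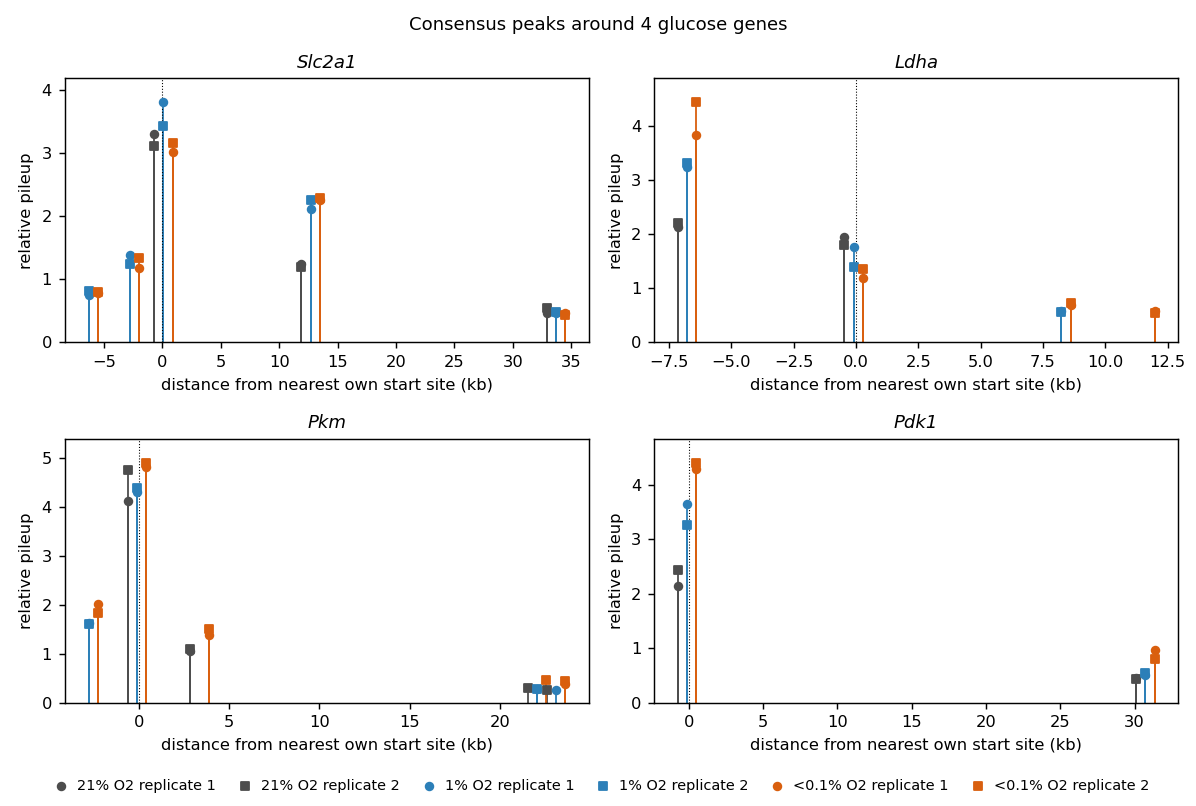
Relative summit pileup (vertical axis) of the consensus peaks in the windows of *Slc2a1*, *Ldha*, *Pkm* and *Pdk1* against distance from the nearest own start site in kb (horizontal axis, dotted line at 0), with stems for 21% O2 (grey), 1% O2 (blue) and <0.1% O2 (orange) set slightly apart and circles and squares for replicates 1 and 2. Missing symbols mean that no peak was listed, as in normoxia at *Slc2a1* -6.3 and -2.8 kb, *Pkm* -2.8 kb and *Ldha* +8.2 kb.

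*Ldha* encodes the lactate dehydrogenase subunit that favours lactate formation, and its locus was lower at the start site and higher, or listed anew, at elements on both sides. The promoter read 1.93 and 1.8 at 21% O2, 1.75 and 1.4 at 1% O2, with 1.19 and 1.35 at <0.1% O2. No hypoxic library reached normoxia, and the change was -0.25 ± 0.13 (adjusted p = 0.118) at 1% O2 and -0.55 ± 0.13 (adjusted p = 0.000522) at <0.1% O2. At -6.8 kb, a start site in the full annotation, the values were 2.13 and 2.2, 3.23 and 3.31, and 3.83 and 4.43, rising stepwise without overlap by 0.59 ± 0.10 (adjusted p = 1.56e-05) and 0.93 ± 0.10 (adjusted p = 2.67e-09). The rank of its fold went the other way at 1% O2, by -23.7 percentile points, and the background around it rose from 5.22 and 6.1 times coverage to 12.1 and 9.63.

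Downstream of *Ldha*, the peak at +8.2 kb was listed only in hypoxia, with 0.574 and 0.561 at 1% O2, with 0.687 and 0.72 at <0.1% O2, where normoxia would have listed about 0.459 and 0.4. At +11.6 kb, at the promoter of *Ldhc*, a peak was listed only at <0.1% O2 (0.586 and 0.549). *Ldhb*, the subunit that favours pyruvate, had a lower promoter at both levels, from 1.72 and 2.04 to 1.42 and 1.37 at 1% O2 (-0.43 ± 0.13, adjusted p = 0.00712) and 1.22 and 1.32 at <0.1% O2 (-0.56 ± 0.13, adjusted p = 0.000373). The call at 1% O2 was lost without normoxic replicate 2 (-0.30) or 1% O2 replicate 2 (-0.39).

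Pyruvate dehydrogenase kinases inactivate pyruvate dehydrogenase in the mitochondrion and so hold back the conversion of pyruvate to acetyl-CoA, and *Pdk1* is the member best known as a HIF target. Its promoter had the largest rise among the 31 strongest promoter peaks, from 2.13 and 2.44 at 21% O2 to 3.65 and 3.26 at 1% O2, with 4.28 and 4.4 at <0.1% O2. Conditions did not overlap, and the log2 change was 0.60 ± 0.10 (adjusted p = 1.52e-05), 1.51-fold, and 0.93 ± 0.10 (adjusted p = 2.62e-09), 1.91-fold. The peak at its 3' end, at +30.7 kb, read 0.443 and 0.425, 0.509 and 0.541, and 0.97 and 0.793, a change of 0.27 (adjusted p = 0.272) at 1% O2 and 1.02 ± 0.19 (adjusted p = 4.23e-05), 2.02-fold, at <0.1% O2. Around the promoter the local background also rose, from 4.18 and 4.8 times coverage to 7.59 and 6.33 and to 7.01 and 6.48, and tested as a fold the change was -0.03 at 1% O2 and 0.17 (adjusted p = 0.152) at <0.1% O2.

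The *Pdk3* promoter fell at <0.1% O2, from 2.39 and 2.35 to 1.75 and 1.78 (-0.43 ± 0.11, adjusted p = 0.00149), a change that did not pass with the GC trend removed (-0.19), and read 2.15 and 2.03 at 1% O2 (-0.18, adjusted p = 0.192). *Pdk2* read 2.44 and 2.52 in normoxia, 3.1 and 2.86 at 1% O2, with 2.57 and 2.71 at <0.1% O2. Its rise at 1% O2 (0.26 ± 0.10, adjusted p = 0.0421) was lost in 4 fits with a library left out (0.22 without normoxic replicate 1 and without 1% O2 replicate 1, 0.33 without 1% O2 replicate 2 and 0.27 without <0.1% O2 replicate 2).

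Glycogen is built from glucose 1-phosphate by way of UDP-glucose, and of the 6 ranked promoter peaks of these genes 0 were higher and 2 lower at 1% O2 (12.9% and 22% over all promoters), and 1 was higher and 3 lower at <0.1% O2 (13.8% and 38.5%). *Gbe1*, the branching enzyme, had the largest fall at <0.1% O2 after those of *Pfkfb2* -1.5 kb and *Pfkfb3*, from 3.67 and 3.74 at 21% O2 to 3.07 and 2.71 at 1% O2, with 1.73 and 1.85 at <0.1% O2. The fall was stepwise, -0.36 ± 0.10 (adjusted p = 0.00615) and -1.05 ± 0.10 (adjusted p = 3.92e-10), and the call at 1% O2 was lost without replicate 2 of that condition (-0.26). *Ugp2*, which makes UDP-glucose, fell from 3.59 and 4.17 to 2.78 and 2.44 (-0.57 ± 0.11, adjusted p = 5.95e-05) and 2.17 and 2.46 (-0.74 ± 0.11, adjusted p = 5.64e-07). Its weaker promoter peak at -1.3 kb, listed in normoxia (1.28 and 0.925), was not listed at 1% O2 and was listed again at <0.1% O2 (0.747 and 0.951).

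*Gys1*, muscle glycogen synthase, had the promoter that was higher at <0.1% O2, a call that did not pass when scaled by coverage (0.32). Its promoter, shared with *Ruvbl2*, read 2.54 in both normoxic libraries, 2.62 and 2.95 at 1% O2, with 3.63 and 3.48 at <0.1% O2. The change was 0.13 (adjusted p = 0.326) at 1% O2 and 0.48 ± 0.10 (adjusted p = 0.000159) at <0.1% O2. *Ppp1r3c*, a subunit that targets phosphatase to glycogen, had a promoter that did not pass (0.12 and 0.10). Its weak distal peak at +4.9 kb was listed in both <0.1% O2 libraries (0.283 and 0.366) and in 1 at 1% O2 (0.241, with its summit outside the consensus peak). Given the background of the nearest listed peak, about 0.279 and 0.25 would have been listed in normoxia, so this gain lies near the limit.

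The phosphoglucomutases, which link glucose 6-phosphate to glucose 1-phosphate, changed inside the genes. At *Pgm1* +17.3 kb relative pileup was 0.967 and 0.975 at 21% O2, 1.42 and 1.37 at 1% O2, with 1.31 and 1.3 at <0.1% O2, higher in hypoxia without overlap (0.52 ± 0.13, adjusted p = 0.00232, and 0.43 ± 0.13, adjusted p = 0.00787). The call at <0.1% O2 did not pass with the GC trend removed (0.30). *Pgm2* +19.6 kb, a start site in the full annotation, read 2.7 and 2.91, 2.8 and 3.01, and 4.37 and 4.9. It rose only at <0.1% O2 (0.72 ± 0.10, adjusted p = 2.59e-07, against 0.05, adjusted p = 0.742), and the *Pgm2* promoter fell there, from 2 and 2.3 to 1.47 and 1.46 (-0.55 ± 0.12, adjusted p = 0.000202). Weak peaks at *Pgm1* -8.4 kb (0.241 and 0.235) and *Gbe1* +254.6 kb (0.213 and 0.276) were listed in both 1% O2 libraries and in no others.

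*Mxi1*, a Max-binding repressor that opposes Myc and is induced by HIF, had 4 promoter peaks, the strongest of which did not pass at either level (0.13 and 0.04). The peak at another start site (+0.0 kb) was lower at <0.1% O2 (-0.39 ± 0.15, adjusted p = 0.0339) and the intronic peak at +30.4 kb higher (0.48 ± 0.19, adjusted p = 0.0391). Neither call held throughout. The first was lost without normoxic replicate 2 (-0.24) or <0.1% O2 replicate 1 (-0.23), and the second without either normoxic library (0.50 and 0.42) or without <0.1% O2 replicate 2 (0.22). Peaks at +34.7 kb (0.565 and 0.439) and at -3.6 kb, by the neighbour *AC133451.2* (0.528 and 0.561), were listed in both 1% O2 libraries and in neither normoxic one.

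**Figure D4:**
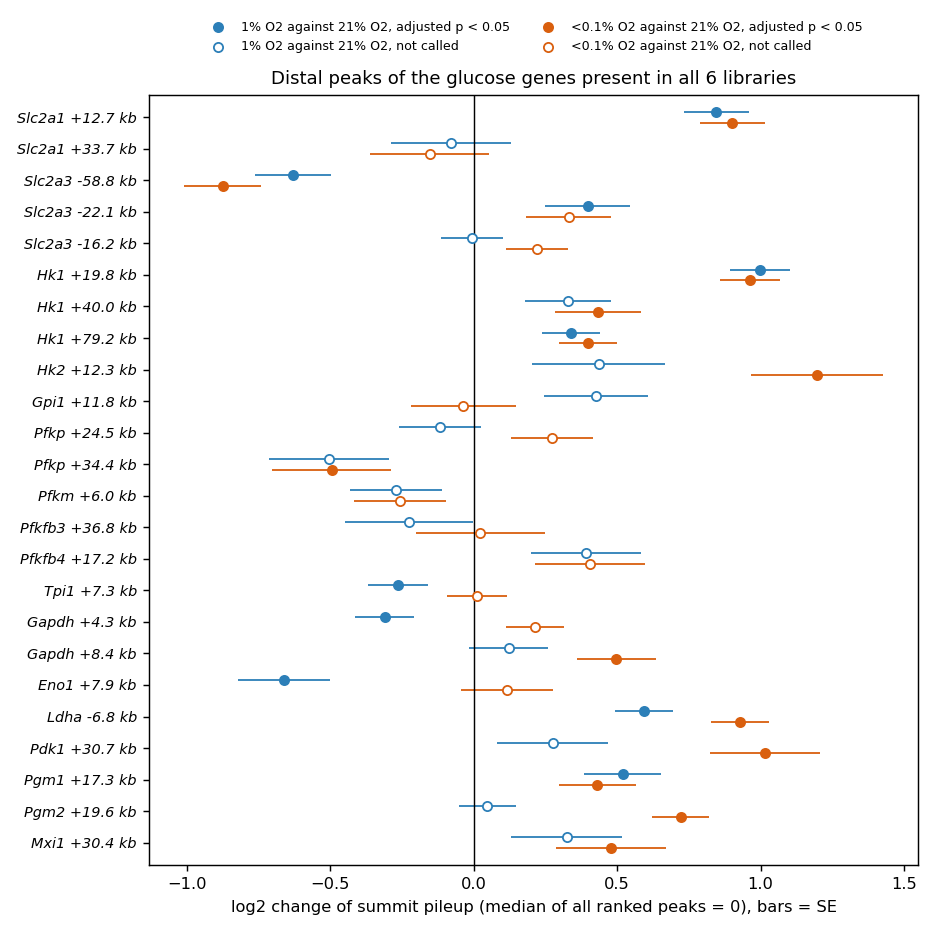
The log2 change of summit pileup (horizontal axis, median of all ranked peaks at 0) at the 24 distal peaks present in all 6 libraries, for 1% O2 (blue) and <0.1% O2 (orange) against 21% O2, with SE bars and filled circles for an adjusted p under 0.05 in limma. *Hk1* +19.8 kb and *Slc2a1* +12.7 kb lie at the far right at both levels, *Hk2* +12.3 kb and *Pdk1* +30.7 kb at <0.1% O2, and *Slc2a3* -58.8 kb at the far left.

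Peaks that were listed in both libraries of a hypoxic condition and in neither normoxic library were mostly distal. At 1% O2, 12 of the 109 member peaks were gained, beside 10.6% of all 41308 consensus peaks, and 3 were lost, beside 1.01%. At <0.1% O2, 7 were gained, beside 10.1%, and 0 were lost, beside 1.52%. The 5 gained at both levels are the first 5 sequences printed above, no promoter of a member was gained, and the remaining peak gained at 1% O2 was *Gpi1* +31.8 kb, at the *Pdcd2l* promoter (0.324 and 0.398, where about 0.328 and 0.287 would have been listed in normoxia). The normoxic lists were the shortest, and lists trimmed to an equal length gave 7 gained and 5 lost at 1% O2, with 3 lost at <0.1% O2. Shares over all consensus peaks were not worked out for the trimmed lists, so these counts cannot be set against the whole series.

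By the percentile rank of the fold, the list looked different. A call here means that the 2 hypoxic ranks did not overlap the 2 normoxic ranks and differed by 10 points or more in the mean, with no test. At 1% O2, 8 promoters were higher (11.9% over all promoters) and 13 lower (16.5%), and 3 distal peaks were higher (20.6% over all distal peaks) and 6 lower (20.2%). At <0.1% O2, 9 promoters were higher (12%) and 14 lower (26.5%), and 5 distal peaks were higher (25.5%) and 6 lower (14.5%). The *Slc2a1* promoter was among the lower ones, by -15.9 and -21.4 points, as was that of *Ldha* (-21.9 and -27.9), while *Hk2* (13.0 and 14.0) and *Pgk1* (15.9 and 12.9) were among the higher ones.

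Both pileup and rank were higher for 2 promoter or distal peaks and lower for 8 at 1% O2 (9.17% and 11% over all ranked peaks), and higher for 7 and lower for 10 at <0.1% O2 (13.3% and 12.6%). They were called in opposite directions for 1 at each level (0.485% and 0.633% over all), *Ldha* -6.8 kb at 1% O2 and *Pfkfb2* -0.2 kb at <0.1% O2. When the log2 fold itself was put through limma, fewer calls were made. At 1% O2, 1 promoter was higher and 1 lower (1.66% and 1.67% over all promoters), with 0 distal peaks in either direction (5.52% and 3.57% over all distal peaks). At <0.1% O2, 1 promoter was higher and 7 lower (3.07% and 9.55%), and 1 distal peak was higher and 1 lower (9.56% and 3.79%). Calls that held there were those of *Aldoa* +1.9 kb and *Pfkfb1* at both levels and, at <0.1% O2, of *Hk2* +12.3 kb, *Slc2a3* -58.8 kb, *Pfkfb2* -1.5 kb, *Pfkfb3*, *Ldha*, *Pgm2* and *Gbe1*. The local background of the peak caller is taken from the region around the peak and includes the peak's own fragments. Its median log2 change was -0.01 in the member promoters and 0.11 in the member distal peaks at 1% O2 (-0.06 and 0.00 over all peaks), and -0.32 and 0.13 at <0.1% O2 (-0.33 and -0.01 over all peaks). The part of the background in the difference between the measures was not tested.

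**Figure D5:**
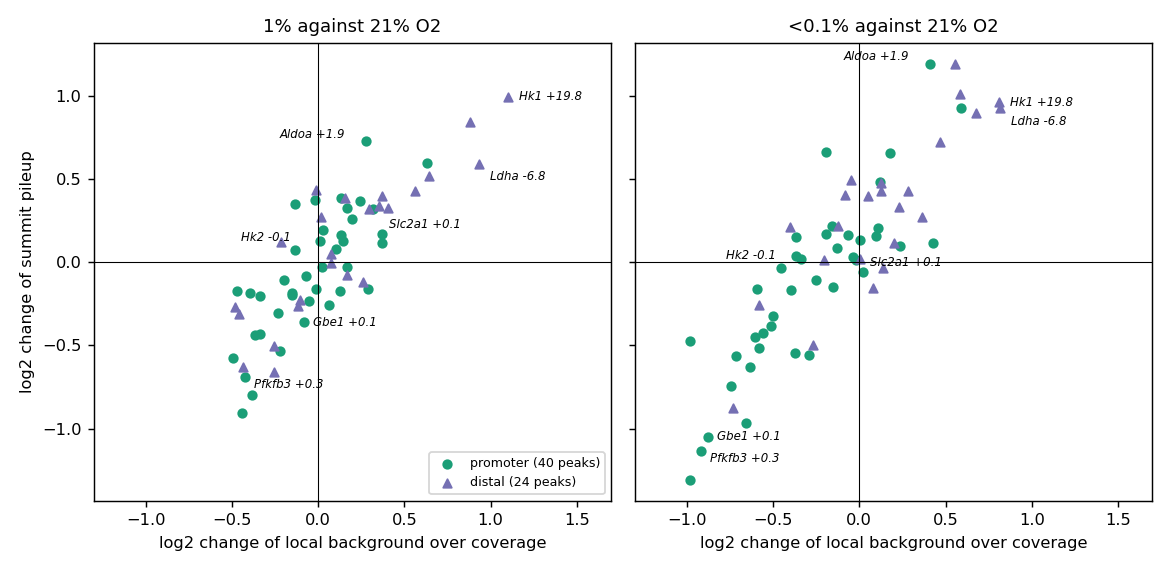
The log2 change of summit pileup (vertical axis) against the log2 change of the local background over genome coverage (horizontal axis) at the ranked member peaks, for 1% O2 (left) and <0.1% O2 (right) against 21% O2, with circles for the 40 promoter and triangles for the 24 distal peaks. The peaks with the largest rises, such as *Hk1* +19.8 kb and *Ldha* -6.8 kb, also rose in background, and *Gbe1* and *Pfkfb3* fell in both at <0.1% O2.

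Severe and mild hypoxia were also compared directly. At <0.1% against 1% O2, 4 promoter peaks were higher (4.97% over all promoters) and 5 lower (18.5%), and 9 distal peaks were higher (21.2% over all distal peaks) and 0 lower (2.84%). The median log2 change was -0.11 for the member promoters and -0.13 for all, and 0.13 for the member distal peaks and 0.16 for all. The distal count rests on the scale, with 0 higher and 2 lower when scaled by coverage (2% and 9.07% over all distal peaks), 4 higher and 1 lower with the GC trend removed (6.87% and 3.35%) and 8 higher and 1 lower with quantile normalization (19.4% and 3.87%). The promoter count was 0 higher and 10 lower by coverage (0.201% and 33.9% over all promoters) and 6 higher and 1 lower with the GC trend removed (5.39% and 4.8%), and 4 higher and 7 lower with quantile normalization (4.2% and 23.5%). *Eno1* +7.9 kb (0.78 ± 0.16, adjusted p = 0.000512), *Hk2* +12.3 kb (0.76 ± 0.23, adjusted p = 0.0146), *Pdk1* +30.7 kb (0.74 ± 0.19, adjusted p = 0.00449) and *Pgm2* +19.6 kb (0.67 ± 0.10, adjusted p = 6.06e-06) had the largest distal differences. The *Slc2a1* +12.7 kb and *Hk1* +19.8 kb peaks did not pass (0.06 ± 0.11 and -0.03 ± 0.10), and *Gbe1* had the largest fall (-0.69 ± 0.10, adjusted p = 8.18e-06).

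Sequence around the summits was compared as a description. ACGTG or GCGTG, on either strand, was present in 53.5% of the 43 member promoter peaks and 48.6% of all promoter peaks, and in 35.3% of the 51 member distal peaks and 23% of all distal peaks. Among member distal peaks that were higher or gained at either level it was present in 43.5% (10 of 23), beside 22.6% of all such distal peaks, and among those neither higher nor gained in 28.6% (8 of 28), beside 23.3%. The stricter TACGTG was in 0 of the 23 member distal peaks that were higher or gained, beside 1.9% of all such peaks. It was in 11.6% of member promoters (5 peaks) and 2.35% of all, and CACGTG, an E-box that includes the core, in 6.98% and 6.58%. TGANTCA was in 25.5% of member distal peaks and 30.2% of all, and in 30.4% and 40.2% of those higher or gained. The core holds the letters CG, and the median GC content was 51.7% in ranked member distal peaks and 48.7% in all ranked distal peaks. The part of base composition in these shares was not tested. A match is no proof of binding, and no match says only that the letters are not in the 200 bases.

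Another 46 genes of glucose metabolism, among them other transporters and hexokinases, the pentose phosphate enzymes, glycogen phosphorylases and the pyruvate dehydrogenase complex, were taken for comparison, with 34 having a ranked promoter peak. At 1% O2, 3 of them were higher and 9 lower, where 12.9% and 22% of all promoter peaks were, and at <0.1% O2, 3 were higher and 14 lower, where 13.8% and 38.5% were. Their median log2 change was -0.13 at 1% O2 and -0.18 at <0.1% O2. Read against the same shares, of the 31 strongest member promoters 4 were higher and 6 lower at 1% O2, and 3 were higher and 11 lower at <0.1% O2. Among promoter peaks of neighbours inside the members' windows, 3 of 12 were higher and 4 lower at 1% O2 (12.9% and 22% over all promoters) and 3 were higher and 3 lower at <0.1% O2 (13.8% and 38.5%).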

How the data were processed

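ATACseq was measured in 6 libraries. The authors aligned reads to mm10 with Bowtie2 2.2.5 and called peaks in each library with MACS2 2.1.1.2 at a q of 0.001, per the submitters' processing notes and the study's methods, keeping a mapping quality of at least 30 and removing duplicates, mitochondrial reads and blacklisted regions. The deposited lists give the fold (a ratio over the local background), the -log10 p-value, the -log10 q-value and a score per peak, as the authors' peak caller wrote them, and the score was not used. The caller's local background is taken around the peak and includes its fragments. Genome coverage (2.16 to 3.35) was read from the smallest background, and its depth limits what could be listed.

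Whole-number summit pileups were recovered from fold and p-value for 100% of peaks (within 0.01). Stretches longer than 200 bp that both replicates of a condition shared were merged over the 3 conditions as consensus peaks. Log2 pileups, centred on the median ranked peak, were tested with limma 3.58.1 in R 4.3.3 (trended prior), which was tested on simulated data. Ranks of the fold and presence had no test. The members, gene lists and tests were chosen with earlier results of these data known. Values per library are given for the strongest promoter peak of members that passed in either hypoxia comparison, the 8 distal peaks with the largest change among those that passed in each comparison, every peak gained or lost, and *Slc2a1*, *Ldha*, *Pgk1*, *Pdk1* and *Hk2*. Others named, and the sequences printed, were chosen after their values were seen, and 1 further sequence is not reported here. Alternatives covered scaling, value tested, thresholds, windows, a GC correction, a replicate block and each library left out, and start sites of the full annotation were added after seeing the data. The study's DESeq2 test of read counts was not run. The other steps ran in Python 3.11.15 with pysam 0.24.0, scipy 1.17.1, pandas 2.3.3 and numpy 2.4.6.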

Additional observations from a re-analysis of the deposited data

Results flagged for a closer look

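The peaks below differed in pileup between <0.1% and 1% O2 by the direct limma contrast (log2 change, <0.1% less 1% O2, adjusted p under 0.05), on the scale of the median ranked peak. Over all promoters 4.97% were higher and 18.5% lower on this scale, and over all distal peaks 21.2% and 2.84%. Scaled by genome coverage, 0 promoter and 0 distal peaks were higher (0.201% and 2% over all) and 10 and 2 lower (33.9% and 9.07%). Tested as the fold 0 passed in either direction, so none of the rises below held in those fits, and none of the falls held as the fold. With the GC trend removed 6 promoter and 4 distal peaks were higher (5.39% and 6.87%) and 1 and 1 lower (4.8% and 3.35%). Higher at <0.1% O2 were *Pfkp* +1.4 kb by 0.84 (with a single listed peak over 2 summits in replicate 1), *Eno1* +7.9 kb by 0.78, *Hk2* +12.3 kb by 0.76, *Pdk1* +30.7 kb by 0.74, *Pgm2* +19.6 kb by 0.67, *Gapdh* +4.3 kb by 0.53, *Aldoa* +1.9 kb by 0.47, *Pfkp* +24.5 kb by 0.39, *Gapdh* +8.4 kb by 0.38, the *Gys1* promoter by 0.35, the *Pdk1* promoter by 0.33, *Ldha* -6.8 kb by 0.33 and *Tpi1* +7.3 kb by 0.28. Lower at <0.1% O2 were *Gbe1* by -0.69, *Pfkfb2* -1.5 kb by -0.51, *Pfkfb3* by -0.44, *Pfkm* by -0.43 and *Pgm2* by -0.35, all at promoters. Leaving out a library gave 1 to 5 promoter and 2 to 9 distal peaks higher, and 2 to 6 promoter peaks lower. The distal rises of *Hk2*, *Pdk1* and *Pgm2* came with promoters that did not pass, rose, and fell, respectively, at <0.1% against 21% O2.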

How the results depend on the processing

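With each library left out in turn, peaks higher and lower in pileup at 1% O2 numbered 3 to 5 and 6 to 9 at promoters and 4 to 6 and 1 to 4 at distal sites. In the same order they were 4 to 6 and 13 to 17, and 9 to 12 and 1 to 3, at <0.1% O2. At <0.1% against 1% O2 they were 1 to 5 and 2 to 6, and 2 to 9 and 0 to 1. Gained and lost peaks numbered 12 to 18 and 3 to 5 at 1% O2, and 7 to 15 and 0 to 4 at <0.1% O2, where a lone library meets the rule more easily. Calls by rank of the fold, higher and lower, ranged from 4 to 11 and 10 to 16 at promoters and 3 to 4 and 6 to 6 at distal sites at 1% O2. They ranged from 6 to 10 and 11 to 17, and 4 to 6 and 5 to 7, at <0.1% O2.

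Scaled by coverage, promoter and distal counts (higher and lower) were 2 and 2, and 4 and 0, at 1% O2. They were 2 and 14, and 6 and 2, at <0.1% O2, and 0 and 10, and 0 and 2, at <0.1% against 1% O2. Tested as the fold they were 1 and 1, and 0 and 0, at 1% O2, 1 and 7, and 1 and 1, at <0.1% O2, and 0 and 0, with 0 distal peaks higher, between the hypoxia levels. With the GC trend removed 13 promoters were higher at <0.1% O2 (12 with the replicate block as well), and at <0.1% against 1% O2 1 promoter was lower, and 4 distal peaks were higher and 1 lower. Quantile normalization gave 9 promoters higher at 1% O2 and 1 distal peak lower between hypoxia levels. The -log10 q gave 3 distal peaks higher and 2 lower at 1% O2 and 4 higher at <0.1% against 1% O2. Without the 10 kb flanks 2 distal peaks were lower at 1% O2 and 5 higher at <0.1% against 1% O2, with 7 and 3 peaks gained at 1% and <0.1% O2. A promoter window of 500 bp gave 3 promoters higher at <0.1% O2 and 2 against 1% O2. Peaks in at least 1 library of each condition gave 1 distal peak lower at <0.1% O2. Start sites of the full annotation gave 2 distal peaks lower at 1% O2, 8 promoters higher and 1 distal peak lower at <0.1% O2, and 8 promoters and 5 distal peaks higher between the hypoxia levels. With equal list lengths 7 peaks were gained and 5 lost at 1% O2, and 3 lost at <0.1% O2. Ranks of the pileup called 5 promoters higher and 5 lower, and 7 distal peaks higher and 3 lower, at 1% O2, and 3 promoters higher, and 10 distal peaks higher and 2 lower, at <0.1% O2. Ranks within the whole list called 7 promoters lower and 5 distal peaks higher and 3 lower at 1% O2, and 2 distal peaks lower at <0.1% O2. Shares over all peaks were worked out only for the main results and for the coverage, quantile, fold and GC settings. Counts under the other settings, or with a library left out, thus cannot be set against the whole series. The causes were not tested.

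The replicate differences of the conditions correlated at -0.05, -0.01 and 0.01 (n = 28432 peaks). Nothing states whether libraries with the same replicate number were made together, and these values cannot show it. The replicate block left 1 of 2 distal peaks lower at <0.1% O2, since *Pfkp* +34.4 kb missed the threshold (adjusted p = 0.051 in limma), and changed no other call of a ranked promoter or distal member peak in any of the 3 comparisons.

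Of 992 values (62 log2 changes under 16 settings each), 827 kept direction and side of the threshold, 132 lost the call, 3 came to pass and 30 turned direction. Tested as the fold, those that turned were *Hk1* +19.8 kb (-0.082 at 1% O2, -0.0082 at <0.1% O2), *Ldha* -6.8 kb (-0.34 and -0.068), *Hk1* +79.2 kb (-0.034), *Gapdh* +4.3 kb (0.082), *Pgm1* +17.3 kb (-0.071) and the promoters of *Hk1* (-0.031), *Pdk1* (-0.031), *Slc2a1* (-0.23) and *Pgk1* (0.23) at 1% O2, and of *Pgk1* (0.19), *Hk2* (0.19) and *Pfkfb2* (0.23) at <0.1% O2. With the GC trend removed, with or without the replicate block, they were *Hk2* (0.18), *Mxi1* (0.060), *Pgk1* (0.056) and *Slc2a1* (0.26) at <0.1% O2. The *Hk2* promoter also turned at <0.1% O2 with quantile normalization (0.031) and -log10 q (0.091), and with a library left out its change ranged from -0.021 to 0.16 at 1% O2 and from -0.15 to 0.043 at <0.1% O2. *Pgk1* turned at 1% O2 with -log10 q (0.0085), and with a library left out its change ranged from -0.36 to 0.0047 at 1% O2 and from -0.37 to 0.0042 at <0.1% O2. No counting interval was worked out for the pileups, and a peak too weak for a library's depth and background could not be listed.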
